A study of Mus musculus with 45 samples.

Results

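The 6 libraries described here held the RNA of Lgr5 wild-type (WT) organoids grown in mouse Rspondin 3 (Rspo3) or mouse Rspondin 1 (Rspo1) at 5 ng/ml, and they are 6 of the 45 libraries of the series. They were chosen by ligand, dose and genotype: the cultures named WT10, WT5 and WT30, each with 1 Rspo1 and 1 Rspo3 library. The series holds 30 organoid libraries in all (3 WT and 2 Lgr5 knockout cultures with Rspo1, Rspo2 or Rspo3 at 5 or 100 ng/ml), and its libraries of sorted cells were not used here. All cultures came from E17.5 small intestine of the Lgr5-DTReGFP line and were at passage 4, and each was grown from 1 embryo, so that the 3 pairs are 3 embryos. In this line a DTReGFP cassette (diphtheria toxin receptor and eGFP in 1 protein) sits in the Lgr5 locus, and the Lgr5 knockout (KO) embryos carry it on both alleles. The labels name this line and give the 3 cultures as WT, a genotype that the paper sets apart from heterozygous and KO embryos of the line. The medium of all organoids also held EGF and noggin, an inhibitor of BMP signalling.

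R-spondins are secreted proteins that bind the receptors Lgr4, Lgr5 and Lgr6 and the membrane ubiquitin ligases Rnf43 and Znrf3. The ligases remove Frizzled Wnt receptors from the cell surface, and an R-spondin takes the ligases away, so that Wnt ligands signal for longer through beta-catenin. In the small intestine this signal keeps crypt stem cells and their dividing progeny, and cells that lose it leave the cycle and differentiate. The comparison asks how the transcriptome of organoids on a low dose of Rspo3 differs from that of the same cultures on the same dose of Rspo1.

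With Rspo3 at 5 ng/ml, organoids had less RNA of stem cell, Wnt target, cell cycle and histone genes than with Rspo1 at 5 ng/ml. They had more RNA of enterocyte, fetal epithelium, immediate early and interferon-induced genes. The rises of the last 3 of these classes were smallest in WT5, with list medians there of 0.42, 0.19 and 0.06. Of 18256 genes tested, 5448 (29.8%) were called at a Benjamini-Hochberg adjusted p under 0.05 by limma, 1516 (8.3%) higher and 3932 (21.5%) lower with Rspo3. The fit took log2(CPM + 1), where CPM is the deposited count scaled to a common library total, over all 18 WT organoid libraries with the culture as a block. Without that pairing 3407 genes were called, 828 higher and 2579 lower. At least 2-fold changes on this scale were fewer, 129 higher and 485 lower, and 5315 of the called genes moved the same way in all 3 cultures. The median log2 difference of all genes was -0.10. The excess of lower calls depended on the scaling: 27.8% of the calls were higher as deposited, 47.1% after scaling to the median ratio and 49.4% after quantile normalization, which moved the median of all genes to 0.01. Leaving out 1 culture changed the number of calls most for WT10, with 2190 genes called without it, against 2848 without WT30 and 4917 without WT5. Of these, 430 were higher and 1760 lower without WT10, 691 and 2157 without WT30, and 1534 and 3383 without WT5. Each such fit rested on fewer libraries, with 5 residual degrees of freedom in place of 10. List counts given below without a culture are to be read beside these totals.

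**Figure D1:**
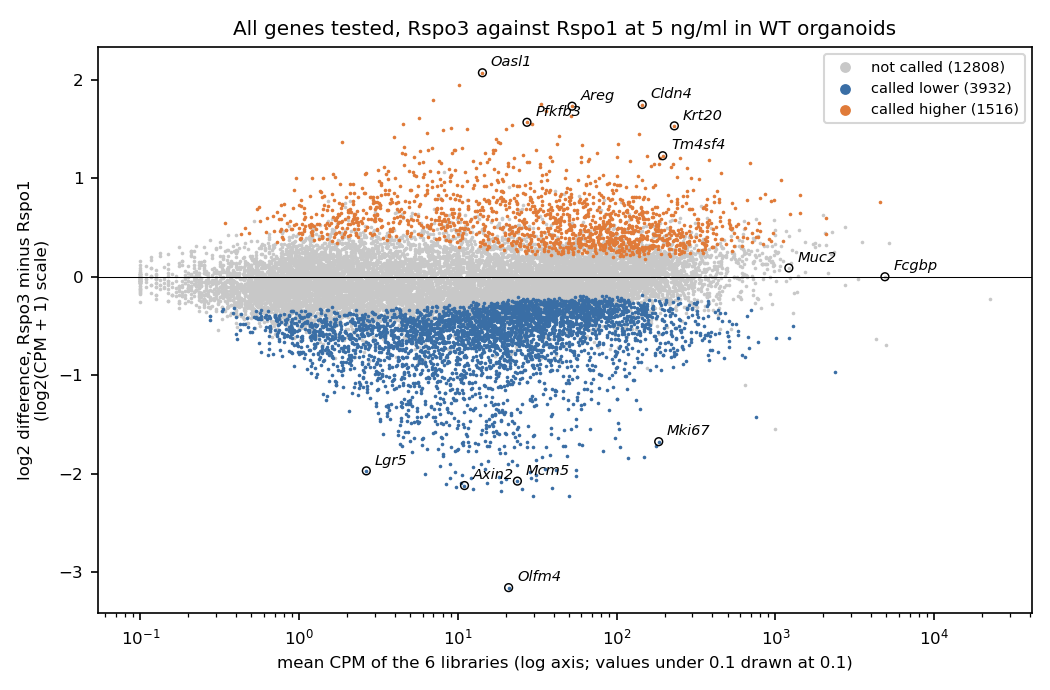
The log2 difference between Rspo3 and Rspo1 at 5 ng/ml in WT organoids (vertical axis, limma fit on log2(CPM + 1)) against the mean CPM of each of the 18256 genes tested (horizontal axis, log scale). Called genes are coloured, 1516 higher and 3932 lower with Rspo3, and Olfm4 lies lowest at -3.16.

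The depth read from the steps between low values was 18400000 to 30800000 reads in the 6 libraries, so that 1 read was worth 0.0325 to 0.0542 CPM. The Rspo1 library of WT10 stood apart among the 6. Cytosolic ribosomal protein genes took 4.56% of its CPM, against 1.97% to 2.63% in the other 5. Mitochondrially encoded genes took 0.401%, against 0.743% to 1.07%. The WT10 libraries with Rspo1 and Rspo2 at 100 ng/ml, which enter the same fit, leaned the same way. Ribosomal protein genes took 4.36% and 3.83% of their CPM, and mitochondrially encoded genes 0.583% and 0.484%. Results are therefore also given without WT10, where that moves a count by more than 1.5 times or ends a call. All 12 epithelial markers of the list were tested, with summed levels of 7354 to 8970.2 CPM in the 6 libraries. Of 18 mesenchymal markers, 13 stayed below 1 CPM in all 6 libraries and Col3a1, Dcn and Foxl1 were at 0, and the summed level was 15.45 to 18.1 CPM with Rspo3, a range that held the 3 Rspo1 libraries (the lowest at 16.25 CPM). Of 20 blood, endothelial and neural markers, 15 stayed below 1 CPM, and the summed level was 27.1 to 39.5 CPM with Rspo1 and 31.4 to 60.0 CPM with Rspo3, most of it Csf1r. The RNA of the ligands themselves, which were added to the medium as proteins, was at 0.1 CPM or less in every library for both Rspo1 and Rspo3.

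Among the receptors that R-spondins bind, Lgr5 differed most. Lgr5 (ENSMUSG00000020140, chromosome 10 of GRCm38, 115450311 to 115587780), which also marks crypt stem cells, was at 5.4, 5.65 and 3.45 CPM with Rspo1 in WT10, WT5 and WT30 and at 0.35, 0.6 and 0.45 CPM with Rspo3. All 3 Rspo3 libraries lay below the Rspo1 libraries, a mean CPM 10.4 times lower and a log2 difference of -1.97 (standard error 0.33, adjusted p = 0.000468), which the added 1 makes smaller than the ratio of CPM at this low level. Lgr4, the receptor expressed through the whole epithelium, was at 224 to 270 CPM with Rspo1 and 205 to 218 CPM with Rspo3, a log2 difference of -0.23 (95% interval -0.42 to -0.05, adjusted p = 0.0571). In bulk samples of this kind, fewer cells of a type and less RNA per cell cannot be told apart.

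Both ligases that R-spondins clear, themselves known targets of the pathway, fell. Znrf3 was at 21.25, 30.9 and 26.65 CPM with Rspo1 and at 13.9, 15.2 and 15.75 CPM with Rspo3 (log2 difference -0.76, standard error 0.13, adjusted p = 0.000406). Rnf43 fell by 0.54 on the log2 scale (adjusted p = 0.0327), a call that was lost without WT10 (adjusted p = 0.242) and under median scaling (0.0569) and quantile normalization (0.179). Of the 22 tested genes of the list of R-spondin receptors, ligases and co-receptors, 2 were higher and 8 lower, with a median of -0.21, and these counts were 0 and 4 without WT10 and 0 and 5 without the pairing. The Frizzled receptors differed among themselves. Fzd2 fell from 4.08 ± 0.340 to 1.25 ± 0.050 CPM (SD, n = 3; log2 difference -1.17, adjusted p = 0.00049), while the far more abundant Fzd5 was at 629 to 897 CPM with Rspo1 and 598 to 726 CPM with Rspo3 and was not called (log2 difference -0.19, adjusted p = 0.319).

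Only 5 of 19 Wnt ligand genes were above the filter. Wnt3, the canonical ligand made by Paneth cells, fell by 0.72 on the log2 scale (adjusted p = 0.00247) and Wnt4 rose by 0.88 (adjusted p = 0.00167). Both calls were lost without WT10 (adjusted p = 0.0715 and 0.0716), and levels were low, 2.45 to 3.0 CPM with Rspo1 for Wnt3 and 3.85 to 6.25 CPM for Wnt4.

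Of the 24 tested Wnt target and feedback genes, 0 were higher and 12 lower, a median of -0.41. Axin2 (ENSMUSG00000000142), the feedback inhibitor most widely used as a readout of beta-catenin, was at 14.8, 25.05 and 15.7 CPM with Rspo1 and at 2.2, 4.6 and 3.65 CPM with Rspo3. The groups did not overlap, and the log2 difference was -2.12 (standard error 0.35, adjusted p = 0.000393). The transcription factor genes Sox4, Sox9 and Myc and the ephrin receptor genes Ephb2 and Ephb4, which sort cells along the crypt axis, fell by 1.15, 1.08, 1.01, 0.90 and 0.63 on the log2 scale, and Myc was the one of these 5 whose call was lost without WT10 (adjusted p = 0.053). Tcf7l2, the main TCF factor of the intestinal epithelium, was at 94.4 to 114 CPM with Rspo1 and 110 to 126 CPM with Rspo3 and was not called (adjusted p = 0.198). In 11 of the 24 genes all Rspo3 libraries lay below all Rspo1 libraries, which was so for 25% of all genes.

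Of the intestinal stem cell markers, 16 of 23 were lower and 0 higher, with a median of -0.68, 0.58 below that of all genes. Olfm4 (ENSMUSG00000022026, chromosome 14, 79984081 to 80023139), a secreted glycoprotein of crypt base stem cells, had the lowest log2 difference of the called genes named by the rule. It was at 51.15, 37.85 and 25.05 CPM with Rspo1 and at 2.8, 6.8 and 1.5 CPM with Rspo3. The groups were far apart, the means differed 10.3-fold, and the log2 difference was -3.16 (standard error 0.39, adjusted p = 2.86e-05). Slc12a2, a chloride cotransporter of crypt cells, was at 253 to 282 CPM with Rspo1 and 58.9 to 115 CPM with Rspo3 (log2 difference -1.72, adjusted p = 3.82e-05). Smoc2, a matricellular protein, followed with -1.64 (adjusted p = 3.84e-05). Ascl2, the transcription factor of the stem cell programme, was at 0.5 CPM or less in all 6 libraries and gave no call (adjusted p = 0.349). Without WT10, 9 of the 23 markers were lower, Olfm4, Lgr5 and Axin2 among them (adjusted p = 0.013, 0.043 and 0.0305).

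**Figure D2:**
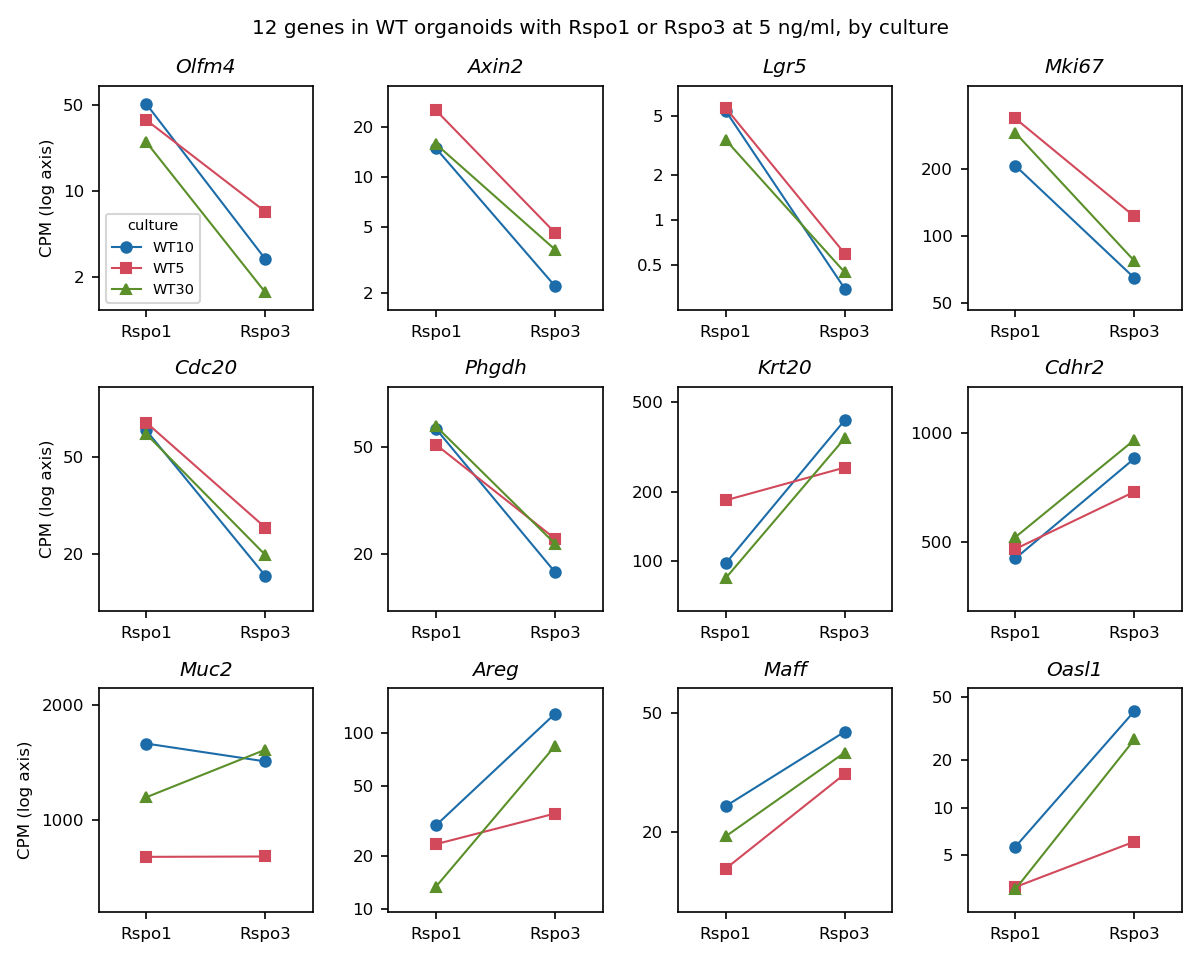
CPM (log axis) of 12 genes in the 6 libraries, with Rspo1 on the left and Rspo3 on the right of each panel and a line joining the libraries of 1 culture (blue circles WT10, red squares WT5, green triangles WT30). Olfm4, Axin2, Lgr5, Mki67, Cdc20 and Phgdh fall in all 3 cultures, and the rises of Areg, Krt20 and Oasl1 are smallest in WT5.

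Cell cycle genes moved most uniformly of all 26 lists. Of 40 genes, 39 were lower with Rspo3 and 0 higher, with a median of -1.56 and culture medians of -1.68, -1.32 and -1.58 in WT10, WT5 and WT30, and 38 or 39 were lower under every alternative run. Mki67, which codes for the proliferation antigen Ki-67, was at 207.7, 338.95 and 292 CPM with Rspo1 and at 64.75, 122.65 and 77.3 CPM with Rspo3. The groups were apart, with a log2 difference of -1.68 (standard error 0.15, adjusted p = 1.15e-06). The spindle checkpoint kinase gene Bub1b, the anaphase activator gene Cdc20 and the spindle motor gene Kif11 had the smallest adjusted p of the list, with log2 differences of -1.79, -1.64 and -1.73 and standard errors of 0.12 to 0.13. The exception was Pcna, the sliding clamp of DNA polymerase, at 62.9 to 80.6 CPM with Rspo1 and 56.2 to 83.8 CPM with Rspo3 (log2 difference -0.08, adjusted p = 0.661).

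The MCM genes code for the helicase that is loaded at replication origins, and Mcm5 had the lowest log2 difference of the list, -2.08 (adjusted p = 1.38e-06), from 35, 43.9 and 36.85 CPM with Rspo1 to 5.35, 12.65 and 8.4 CPM with Rspo3. Mcm6 fell by 1.61 (adjusted p = 1.72e-05). They are shown because both promoters hold the letters of an E2F element, the binding site of the factors that switch on S phase genes. In the 300 bases from 250 before to 50 after each RefSeq start (GRCm38.p6), TTTGGCGC or TTTCGCGC on either strand was found in 7 of the 33 tested cell cycle genes with a window (21.2%) and in 0.929% of all 27025 genes with one. Capitals mark the matches, 2 in Mcm5 and 3 in Mcm6. Those of Mcm5 overlap, and in Mcm6 the match at bases 204 to 211 of the window stands apart from the overlapping others. Mcm5 is at chr8:75109259-75109558 on the plus strand and Mcm6 at chr1:128359656-128359955 on the minus strand.
Mcm5: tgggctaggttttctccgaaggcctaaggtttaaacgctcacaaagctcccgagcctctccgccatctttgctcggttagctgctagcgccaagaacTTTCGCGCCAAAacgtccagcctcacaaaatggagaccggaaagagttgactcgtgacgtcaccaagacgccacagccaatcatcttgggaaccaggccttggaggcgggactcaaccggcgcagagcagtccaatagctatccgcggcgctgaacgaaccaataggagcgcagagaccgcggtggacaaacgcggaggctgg
Mcm6: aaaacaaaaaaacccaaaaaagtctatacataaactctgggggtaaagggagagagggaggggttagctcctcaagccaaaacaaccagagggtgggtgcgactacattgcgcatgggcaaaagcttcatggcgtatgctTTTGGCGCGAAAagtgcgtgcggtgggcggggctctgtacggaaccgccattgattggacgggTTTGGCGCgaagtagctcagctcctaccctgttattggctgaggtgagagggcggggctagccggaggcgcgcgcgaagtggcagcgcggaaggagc

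Replication-dependent histone genes, which are transcribed in S phase, made up 8 of the 10 largest falls. Hist1h1b, a linker histone gene of the cluster on chromosome 13, was at 108.25, 75.3 and 65.15 CPM with Rspo1 and at 11.35, 23.65 and 16.6 CPM with Rspo3 (log2 difference -2.23, standard error 0.22, adjusted p = 4.09e-06). Of the 65 tested genes with a Hist symbol, a set formed after the values were seen, 63 were lower and 0 higher, with a median of -1.68, and 55 to 64 were lower under the alternatives that tested all 65. Histone genes took 0.316% to 0.536% of CPM with Rspo1 and 0.153% to 0.160% with Rspo3. These genes have near-identical copies, so the value of a single one is uncertain.

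Phgdh and Psat1, which code for enzymes of serine synthesis, were at 50.9 to 59.5 and 71.7 to 99.0 CPM with Rspo1 and at 17.1 to 22.7 and 30.8 to 37.3 CPM with Rspo3, log2 differences of -1.42 and -1.30 (adjusted p = 2.88e-06 and 1.1e-05). Shmt2, the mitochondrial serine hydroxymethyltransferase gene, fell by 1.14 (adjusted p = 5.79e-05). The list they belong to, unfolded protein and amino acid response genes, had 4 members higher and 12 lower of 27. These counts were 2 and 8 without WT10 and 2 and 9 without WT30. The log2 differences of the list ran from -1.42 to 1.54, and the called members named here are all falls. Pdia6, a protein disulfide isomerase gene of the endoplasmic reticulum, fell by 0.62 (adjusted p = 4.42e-05), while its fellow chaperone gene Calr, at 442 to 461 CPM with Rspo1 and 363 to 429 CPM with Rspo3, was not called (adjusted p = 0.109).

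Cytosolic ribosomal protein genes were lower in 75 of 85 and higher in 0, with a median of -0.61. This count rested on the cultures unevenly: their medians were -1.26 in WT10, -0.17 in WT5 and -0.42 in WT30. The count was 15 without WT10, 7 without WT30, 78 without WT5, 45 without the pairing, 40 under median scaling and 1 when the 6 libraries were fitted alone. Rpl3 fell from 414 to 521 CPM with Rspo1 to 267 to 329 CPM with Rspo3 (log2 difference -0.65, adjusted p = 0.00104), a call that held without each culture. Many of these genes have processed pseudogenes, which makes single values uncertain. The 11 tested mitochondrially encoded genes gave 0 calls, with culture medians of 1.41 in WT10, -0.16 in WT5 and 0.14 in WT30.

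Enterocyte genes were the differentiated class that rose: 21 of 39 were higher and 0 lower, with a median of 0.63 and culture medians of 0.70, 0.50 and 0.63. Krt20, a keratin of mature villus cells, was at 97.3, 184.55 and 83.8 CPM with Rspo1 and at 415.5, 257.2 and 345.9 CPM with Rspo3. The groups did not overlap, and WT5, with the highest Rspo1 value, had the smallest rise (log2 difference 1.53, standard error 0.29, adjusted p = 0.00126). The transporter genes Slc2a2 (GLUT2) and Slc15a1 (the peptide transporter PepT1) rose by 1.63 and 1.45 (adjusted p = 0.011 and 0.0027). Cdhr2, a cadherin of the brush border, rose by 0.78 (adjusted p = 0.00177) and Cyp3a13, a cytochrome P450 gene, by 1.02 (adjusted p = 0.00229). The brush border enzyme genes Sis and Alpi lay wholly above the Rspo1 libraries, at 2147 to 2704 against 1238 to 1831 CPM and at 2206 to 2363 against 1600 to 2139 CPM, but were not called (adjusted p = 0.122 and 0.348). In all, 27 of the 39 genes were apart in this direction, as were 10% of all genes. Fewer calls remained without WT10: 3 enterocyte genes were called higher, as were 430 of all 18256 genes, and the list median was 0.52. Krt20, Cdhr2 and Slc2a2 were then not called (adjusted p = 0.0627, 0.0572 and 0.108). Without WT30, Slc2a2 was not called either (adjusted p = 0.0841), and without the pairing by culture 11 were called.

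Genes of the secretory lineages gave mixed calls. Of 23 tested Paneth cell genes, 2 were higher and 14 lower, with medians of -1.10 in WT10, -0.45 in WT5 and -0.39 in WT30. Lyz1, the lysozyme gene of Paneth cells, was at 185.35, 78.95 and 128.25 CPM with Rspo1 and at 59.05, 51.4 and 88.7 CPM with Rspo3. The groups overlapped, and the log2 difference of -0.92 (adjusted p = 0.00716) was not called without WT10 (adjusted p = 0.126). Itln1, an intelectin gene, fell by 1.59 (adjusted p = 9e-05) with and without each culture, whereas Pnliprp2 and Guca2b, a pancreatic lipase relative and uroguanylin, rose by 0.81 and 0.88 (adjusted p = 6e-05 and 0.00129). Without WT10 the Paneth counts were 2 higher and 3 lower, without WT30 2 and 8, and without the pairing 0 and 5. The defensins among them have near-identical copies and are uncertain singly.

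Of 18 goblet cell genes, 2 were higher and 6 lower. These counts were 0 and 1 without WT10 or without the pairing, 0 and 6 without WT30 and 0 and 2 under quantile normalization. The secretory regulator genes Foxa3 and Spdef fell by 0.69 and 0.53 (adjusted p = 0.000817 and 0.0062), and both calls were lost without WT10 (adjusted p = 0.0548 and 0.0827). Muc2, the gel-forming mucin, was at 799 to 1586 CPM with Rspo1 and 800 to 1528 CPM with Rspo3 and was not called (log2 difference 0.09, adjusted p = 0.712). Of 26 enteroendocrine genes 1 was lower, Neurog3, the factor that starts the lineage (log2 difference -0.72, adjusted p = 0.0168, and 0.0935 without WT10). The hormone granule gene Chga was at 54.9 to 108 CPM with Rspo1 and 54.6 to 130 CPM with Rspo3 (adjusted p = 0.673). Of 13 tuft cell genes 1 was higher, Il4ra (log2 difference 0.45, adjusted p = 0.00269, and 0.052 without WT10), and Dclk1 was at 3.55 CPM or less throughout (adjusted p = 0.686).

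**Figure D3:**
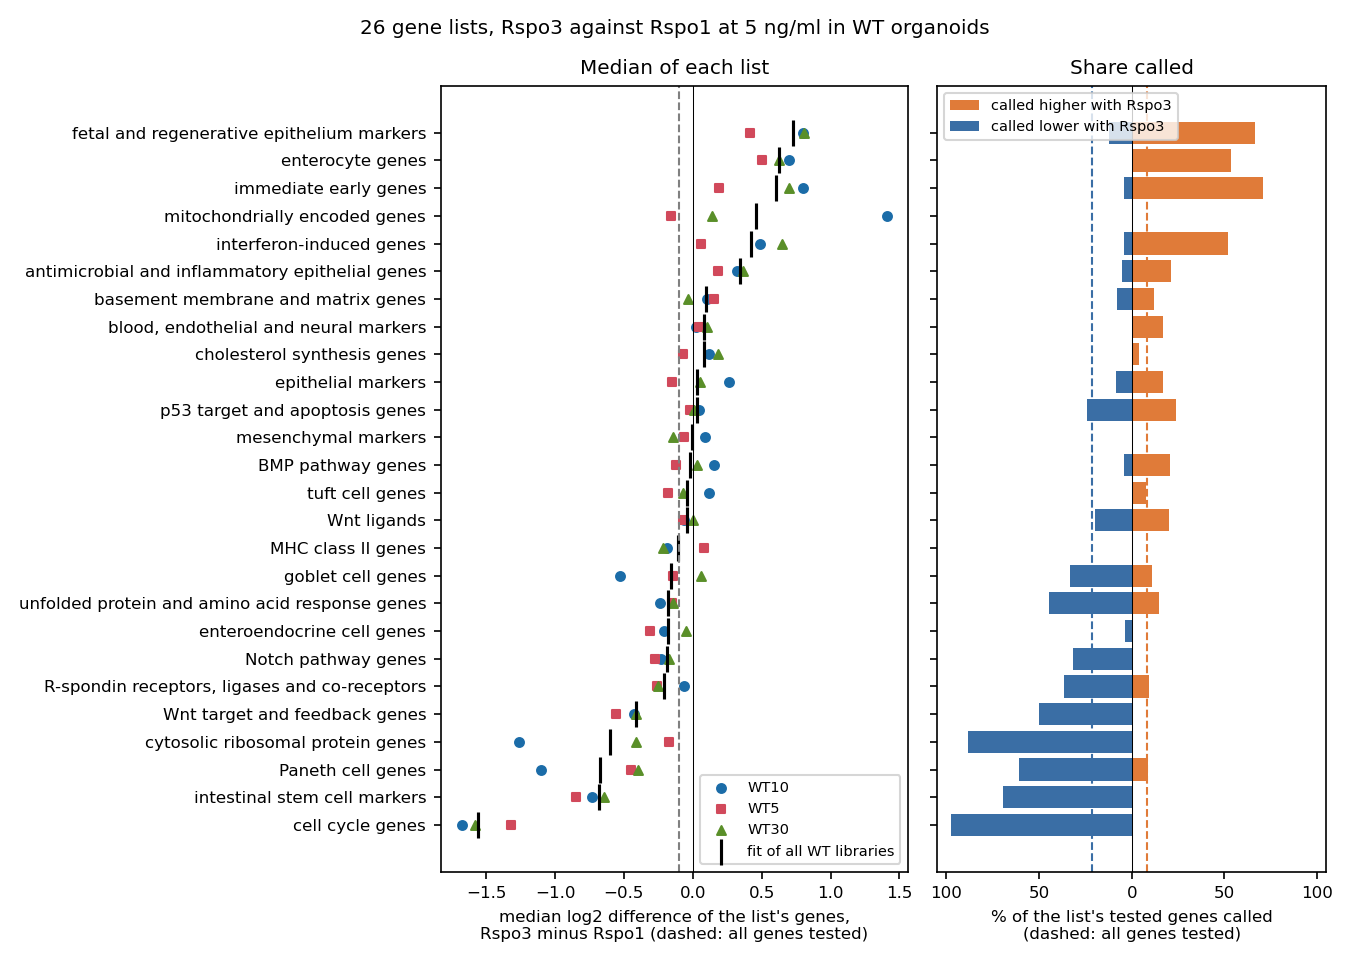
Left, the median log2 difference between Rspo3 and Rspo1 at 5 ng/ml of each of the 26 gene lists in the 3 cultures and in the fit, with the median of all genes dashed. Right, the percent of tested members called higher or lower, with the shares of all genes (8.3% higher, 21.5% lower) dashed. Cell cycle genes lie lowest, at -1.56, and fetal epithelium genes highest, at 0.73.

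Markers of fetal and regenerating epithelium rose in 16 of 24 and fell in 3, with a median of 0.73. The culture medians were 0.80 in WT10, 0.42 in WT5 and 0.80 in WT30. The summed CPM of the list did not rise in WT5, at 2207.35 with Rspo1 and 2188.75 with Rspo3. It went from 2271.05 to 3392.65 in WT10 and from 2166 to 2987.05 in WT30. Areg, which codes for the EGF receptor ligand amphiregulin, was at 29.85, 23.35 and 13.4 CPM with Rspo1 and at 128.35, 34.85 and 84.25 CPM with Rspo3. The groups were apart, but the WT5 value with Rspo3 stood only slightly above the highest Rspo1 value (log2 difference 1.73, standard error 0.27, adjusted p = 0.000282). Tm4sf4, a tetraspan membrane protein gene, rose by 1.23 (adjusted p = 3.59e-05), and Clu, the clusterin gene of revival stem cells, by 1.16 (adjusted p = 0.00385). The tight junction gene Cldn4 rose by 1.75 (adjusted p = 0.00245), but WT5 went only from 49.05 to 60.6 CPM, and the call was lost without WT10 or without WT30 (adjusted p = 0.0743 and 0.0911). Ly6a, which codes for Sca-1, was called (adjusted p = 0.0209) at no more than 0.9 CPM, and not without WT5 or WT30 (adjusted p = 0.164 and 0.107). The 3 that fell were Ccna2, Fabp5 and Krt7, of which Ccna2 is a cyclin gene and also counted with the cell cycle. Krt19, at 1377 to 1729 CPM in all 6 libraries, was not called (adjusted p = 0.814). Leaving out WT10 or WT30 left 8 genes higher in each case, and leaving out the pairing 8.

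Sprr1a and Anxa10, a cornified envelope protein gene and an annexin gene, were among the 10 largest rises. Sprr1a was at 5.3, 1.0 and 2.9 CPM with Rspo1 and at 26.7, 3.45 and 21.85 CPM with Rspo3 (log2 difference 1.95, adjusted p = 0.00276, and 0.0653 without WT30). Anxa10 was at 26.2, 10.8 and 10.5 CPM with Rspo1 and at 83.1, 22.3 and 61.1 CPM with Rspo3 (log2 difference 1.68, adjusted p = 0.000487). In both genes the WT5 library with Rspo3 lay below the WT10 library with Rspo1, so the groups overlapped although each culture rose. Their promoters each hold the AP-1 heptamer TGACTCA, read here as TGAGTCA on the other strand, at 2 places. It occurred in 5 of the 12 fetal markers with a window (41.7%), in 0 of 20 immediate early genes and in 5.95% of all genes. The windows are chr3:92485832-92486131 and chr8:62123144-62123443, both on the minus strand, with the heptamer in capitals.
Sprr1a: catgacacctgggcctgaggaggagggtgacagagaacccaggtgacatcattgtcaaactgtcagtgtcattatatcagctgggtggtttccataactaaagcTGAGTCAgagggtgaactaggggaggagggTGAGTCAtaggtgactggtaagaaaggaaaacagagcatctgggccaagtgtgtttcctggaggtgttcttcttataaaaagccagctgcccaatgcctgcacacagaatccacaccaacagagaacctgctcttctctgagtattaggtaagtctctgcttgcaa
Anxa10: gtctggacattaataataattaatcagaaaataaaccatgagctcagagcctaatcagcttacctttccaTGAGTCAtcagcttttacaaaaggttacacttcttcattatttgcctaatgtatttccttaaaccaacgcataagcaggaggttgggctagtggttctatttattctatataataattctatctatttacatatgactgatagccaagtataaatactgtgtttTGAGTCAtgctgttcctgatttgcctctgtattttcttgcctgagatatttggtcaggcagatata

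Immediate early genes, which code for the transcription factors and phosphatases first induced by growth factor or stress signals, rose in 17 of 24 and fell in 1, Spry4, with a median of 0.60. Maff, a small MAF factor, was at 24.35, 15.05 and 19.3 CPM with Rspo1 and at 43.2, 31.2 and 36.8 CPM with Rspo3. All Rspo3 libraries were above all Rspo1 libraries (log2 difference 0.90, standard error 0.11, adjusted p = 2.02e-05). The MAP kinase phosphatase genes Dusp6 and Dusp5 rose by 0.85 and 0.71 (adjusted p = 5.39e-05 and 0.000325), and Fos, a component of AP-1, went from 9.8, 9.6 and 7.15 to 38.1, 11.65 and 26.1 CPM (log2 difference 1.28, adjusted p = 0.0026). The call of Fos was lost without WT10 or WT30 (adjusted p = 0.0892 and 0.0743), and the list then had 5 and 8 genes higher. The most abundant member, Jund, was not called (log2 difference 0.23, adjusted p = 0.254). The culture medians were 0.80 in WT10, 0.19 in WT5 and 0.70 in WT30.

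Interferon-induced genes rose in 13 of 25 and fell in 1, with culture medians of 0.49 in WT10, 0.06 in WT5 and 0.65 in WT30. Oasl1, of the oligoadenylate synthetase family, had the largest rise of all genes named, from 5.65, 3.15 and 3.05 CPM with Rspo1 to 40.7, 6.1 and 26.95 CPM with Rspo3 (log2 difference 2.07, standard error 0.29, adjusted p = 0.000101). Irf7, the factor that amplifies interferon responses, and B2m, the light chain of class I MHC, rose by 0.75 and 0.47 (adjusted p = 0.000254 and 0.000732). Without WT10 or without WT30, 6 genes were higher.

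Ddx60, a helicase gene of antiviral defence, and Ifit1bl1, of the tetratricopeptide family, are shown with their promoters. Ddx60 was at 2.2, 2.2 and 1.4 CPM with Rspo1 and at 10.45, 2.25 and 9.1 CPM with Rspo3, hardly moving in WT5 (log2 difference 1.31, adjusted p = 0.00251, and 0.106 without WT10 and 0.0968 without WT30). Ifit1bl1 rose by 1.79 (adjusted p = 0.00109, and 0.0552 without WT30). The core of the interferon-stimulated response element, GAAA followed by any 2 bases and GAAA, on either strand, was in 11 of the 21 interferon-induced genes with a window (52.4%) and in 3.99% of all genes. Capitals mark it at chr8:61927837-61928136 on the plus strand and at chr19:34601919-34602218 on the minus strand, where it reads as its reverse complement.
Ddx60: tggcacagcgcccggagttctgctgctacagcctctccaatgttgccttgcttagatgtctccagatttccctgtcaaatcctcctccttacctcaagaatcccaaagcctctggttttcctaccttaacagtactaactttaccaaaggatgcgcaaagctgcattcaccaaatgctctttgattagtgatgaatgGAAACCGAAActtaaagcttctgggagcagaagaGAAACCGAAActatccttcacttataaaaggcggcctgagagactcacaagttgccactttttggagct
Ifit1bl1: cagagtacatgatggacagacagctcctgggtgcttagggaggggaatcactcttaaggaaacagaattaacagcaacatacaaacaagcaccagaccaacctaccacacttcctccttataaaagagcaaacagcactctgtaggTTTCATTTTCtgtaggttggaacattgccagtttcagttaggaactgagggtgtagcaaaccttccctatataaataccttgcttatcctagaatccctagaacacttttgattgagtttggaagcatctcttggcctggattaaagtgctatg

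For the Wnt lists the same search gave little contrast. CTTTGAT or CTTTGAA, the core of the TCF/LEF site, was in 3 of 15 Wnt target genes and in 1 of 17 stem cell markers with a window, against 9.88% of all genes.

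Other pathway lists split or stayed near the background. In the Notch list 0 of 22 were higher and 7 lower, among them the feedback gene Nrarp (log2 difference -0.68, adjusted p = 0.000366) and the glycosyltransferase gene Lfng (-1.12, adjusted p = 0.000733), and 4 were lower without WT5. Dll1, the ligand gene, was not called (adjusted p = 0.941). The p53 target and apoptosis list held 7 higher and 7 lower of 29: Aen, an exonuclease gene, and Phlda3 fell by 0.90 and 1.03 (adjusted p = 0.000169 and 0.000778), and Cdkn1a, the p21 inhibitor of cyclin-dependent kinases, rose by 0.53 (adjusted p = 0.00386). Without WT30 that list had 5 higher and 4 lower, and without WT10 0 higher and 2 lower, Phlda3 and Cdkn1a being lost (adjusted p = 0.0537 and 0.099). BMP pathway genes gave 5 higher and 1 lower of 24, with 0 of either without WT10 and 1 of each without WT30.

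Basement membrane and matrix genes gave 3 higher and 2 lower of 25, and 1 higher and 0 lower without WT10, 1 and 1 without WT30, 6 and 2 under median scaling and 7 and 1 under quantile normalization. Hspg2, which codes for the proteoglycan perlecan, fell by 1.24 (adjusted p = 0.00175, and 0.0639 without WT10). Antimicrobial and inflammatory genes gave 4 higher (1 without WT10) and 1 lower of 19: the chemokine gene Ccl28 fell by 1.07 (adjusted p = 0.00013), and Cxcl1 rose by 0.88 at 2.5 CPM or less (adjusted p = 0.000274). Cholesterol synthesis genes gave 1 higher (8 under median scaling) and 0 lower of 25, and MHC class II genes 0 calls among 2 tested. Pfkfb3, the glycolytic regulator, belonged to no list and had a log2 difference of 1.57 with the smallest adjusted p of the 10 largest rises (9.78e-07).

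At 100 ng/ml the ligand difference of the same 3 cultures was another for some gene lists and alike for others. The difference between the doses was tested in the same fit. At that dose 3120 genes (17.1%) were called between Rspo3 and Rspo1, 774 (4.24%) higher and 2346 (12.9%) lower. For 927 genes (5.08%) the ligand difference itself differed between doses, 437 (2.39%) with a higher and 490 (2.68%) with a lower value at 5 ng/ml. The cell cycle list accounted for 34 of them, all lower at 5: its median was -1.56 at 5 and -0.19 at 100 ng/ml, where 1 gene was higher and 3 lower. Mki67 was at 609 ± 145 CPM with Rspo1 and 556 ± 12.4 CPM with Rspo3 at 100 ng/ml (SD, n = 3; log2 difference -0.10, 95% interval -0.41 to 0.21), and the difference between doses was -1.58 (95% interval -2.01 to -1.14, adjusted p = 0.000406). The mitotic genes Nek2, Ccnb1 and Cdc20 had the smallest p, with differences between doses of -1.62, -1.59 and -1.56 (adjusted p = 0.00022 each), and Ccnb1 was not called without WT10 (adjusted p = 0.0508). The number of genes rested on the cultures: it was 34 without WT10, 175 without WT30 and 642 without WT5, and the cell cycle list then held 6, 26 and 34 of them.

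For stem cell and Wnt target genes few differences between doses were called. At 100 ng/ml Lgr5 was at 134 ± 51.2 CPM with Rspo1 and 46.3 ± 6.07 CPM with Rspo3 (log2 difference -1.46, adjusted p = 0.0138), and Axin2 was at 298 ± 114 and 122 ± 34.3 CPM (-1.26, adjusted p = 0.0269). The differences between doses were -0.51 for Lgr5 (95% interval -1.51 to 0.48, adjusted p = 0.56) and -0.87 for Axin2 (-1.92 to 0.19, adjusted p = 0.331), so both intervals held 0 as well as large differences. Olfm4 was at 695 ± 137 and 331 ± 84.4 CPM at 100 ng/ml, and its difference between doses of -2.07 (95% interval -3.23 to -0.91) was called (adjusted p = 0.0393). That call was lost without WT10 or WT30 (adjusted p = 0.464 and 0.0648), without the pairing (0.211), under quantile normalization (0.102) and with every gene above 0 tested (0.102). Of the stem cell list 2 of 23 genes were called for the difference between doses, and of the Wnt targets 2 of 24, and 0 of either list were called without WT10, without WT30 or without the pairing. Fetal epithelium and immediate early genes gave 8 of 24 and 9 of 24: their medians were 0.73 and 0.60 at 5 and -0.25 and -0.09 at 100 ng/ml. Higher at 5 ng/ml were 7 and 9 of these, which became 2 and 0 without WT10, 2 and 2 without WT30 and 1 and 2 without the pairing. Tm4sf4, which rose at 5 ng/ml, fell by 0.56 at 100 ng/ml (adjusted p = 0.0255), with a difference between doses of 1.79 (adjusted p = 0.000271). Enterocyte genes gave 1 of 39, and at 100 ng/ml 19 were higher and 0 lower, with a median of 0.53.

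**Figure D4:**
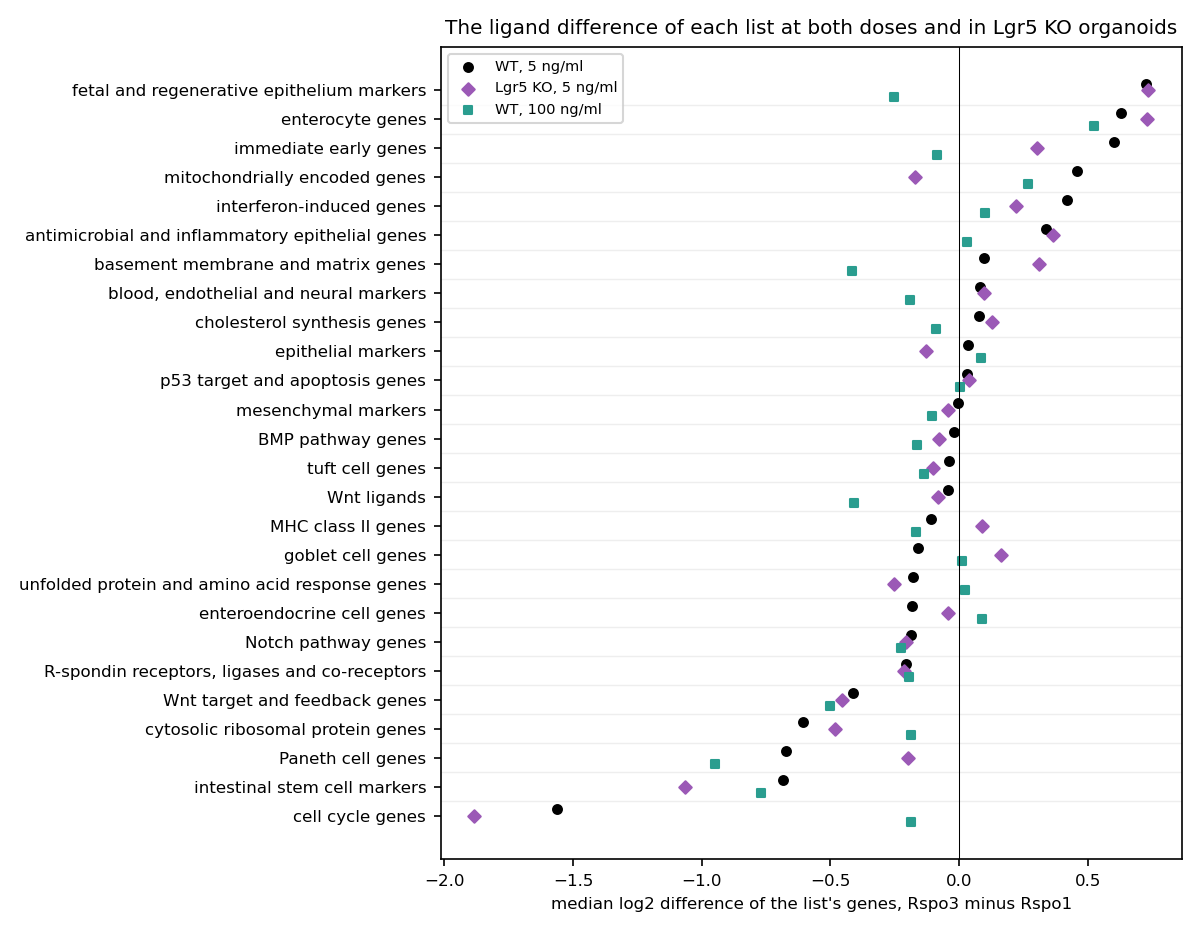
Median log2 difference between Rspo3 and Rspo1 of each gene list in WT organoids at 5 ng/ml, Lgr5 KO organoids at 5 ng/ml and WT organoids at 100 ng/ml. The cell cycle median is -1.56, -1.88 and -0.19 in this order, and the stem cell median is -0.68, -1.07 and -0.77.

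The Lgr5 KO organoids allow the same comparison at 5 ng/ml in 2 cultures, KO7 and KO2. There 5039 genes (27.6%) were called, 1316 (7.21%) higher and 3723 (20.4%) lower with Rspo3. Cell cycle genes had 39 of 40 lower with a median of -1.88, and stem cell markers 16 of 23 lower with a median of -1.07. Enterocyte genes had 16 higher (21 in WT), at a median of 0.73. Several other lists had far fewer calls than in WT, which has 3 cultures against 2. Immediate early genes had 5 higher and 2 lower (17 and 1 in WT), at a median of 0.30 (0.60 in WT). Interferon-induced genes had 4 higher and 0 lower (13 and 1), at 0.22 (0.42). Fetal epithelium genes had 8 higher and 1 lower (16 and 3), but at a like median of 0.74 (0.73). Ribosomal protein genes had 32 lower (75), at -0.48 (-0.61). Olfm4 was at 138 ± 114 CPM with Rspo1 and 7.53 ± 0.460 CPM with Rspo3 (SD, n = 2; log2 difference -3.73, adjusted p = 1.94e-05). Tested directly, the ligand difference differed between WT and KO for 0 genes by limma, with 778 at an unadjusted p under 0.05. The intervals were wide: for Olfm4 the WT minus KO difference was 0.57 (95% interval -0.80 to 1.94), for Axin2 0.46 (-0.87 to 1.79) and for Lgr5 -0.19 (-1.58 to 1.19), where reads of the KO come from the disrupted locus. Paneth cell genes had 2 higher and 0 lower in the KO, against 2 and 14 in WT, and 0 of them were called for the difference. Xist was at 1030 to 1788 CPM in the 6 WT libraries at 5 ng/ml and Ddx3y at 0.1 CPM or less, whereas the 4 KO libraries had 0.6 to 2.45 CPM of Xist and 55.6 to 62.4 CPM of Ddx3y, so that genotype and sex of the embryos cannot be told apart.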

How the data were processed

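RNA of organoids was extracted as total RNA (miRNeasy Micro kit), depleted of ribosomal RNA with a NEBNext kit and sequenced as paired ends. Per the submitters' processing notes and the study's methods, the authors trimmed reads with Trimmomatic 0.36 and mapped them to GRCm38 (mm10) with STAR 2.5.3a. They counted reads on Ensembl genes with HTSeq 0.9.1 and deposited 1 table of library-scaled counts (CPM) for 52636 genes. The values lie in steps of 0.05 and were taken here as rounded up. Whether counting used the strand is not given in the sources used here. CPM are relative to the library total, so a rise of some genes lowers others.

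Here log2(CPM + 1) was used with no other scaling. The filter kept genes that reached 1 CPM in 3 or more of the 18 WT organoid libraries. The test was that of limma 3.58.1 (R 4.3.3; lmFit, then eBayes with a trend), with ligand and dose group and culture as terms and Benjamini-Hochberg adjustment. The study's methods state no design formula for the organoid libraries. Cultures were treated as pairs because each comes from 1 embryo: the deviations of paired libraries correlated at 0.204 in WT10, 0.157 in WT5 and 0.550 in WT30. The difference between doses was a contrast of this fit, and that between genotypes a contrast of a fit of all 30 organoid libraries. The p-values of the WT fit measure the spread left after culture and group are taken out, pooled over all 18 WT libraries. Those of the KO and genotype comparisons came from the fit of all 30 organoid libraries. The 6 libraries of the 2 groups alone, which rest on the 3 pairs, gave 2046 calls. A fold change on this scale understates that of low genes. No count test was run.

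Depth was read from the spacing of low CPM values. Symbols and coordinates came from GENCODE M21, in which 52403 identifiers were found. Promoter windows came from RefSeq (GRCm38.p6), and motifs and printed promoters were chosen after values were seen. The genes named are the 10 largest rises and falls among called genes with 1 direction in all cultures (predicted genes left out), up to 3 called members of smallest adjusted p and the most abundant uncalled member of each of the 26 lists, a fixed set of markers, and the 3 genes of smallest p for each difference between contrasts. Some genes that this rule names are not reported here. Others (Mcm5, Mcm6, Ddx60, Fos, Clu, Slc15a1, Shmt2, Myc, Sox9, Ephb2, Cdkn1a, Fabp5, Krt7 and Spry4) were chosen after values were seen. So was the histone set. The members and lists were chosen with earlier results of these data known. The scripts were tested on simulated data. Python 3.11.15, pandas 2.3.3, numpy 2.4.6 and matplotlib 3.10.9 were also used. Alternatives were a pseudocount of 0.1, other filters, median and quantile scaling, array weights, no culture block, other sets of libraries, a fold limit of 1.5 and leaving out each culture.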

Additional observations from a re-analysis of the deposited data

Results flagged for a closer look

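The ligand difference itself differed between 5 and 100 ng/ml in WT organoids for 927 genes (5.08% of those tested), by the interaction contrast of the limma fit. Of these, 448 had a called fall that was larger at 5 ng/ml, 311 a called rise that was larger at 5 ng/ml and 171 a larger called change at 100 ng/ml, and 44 were called in opposite directions at the doses. The change at 100 ng/ml was the larger in 19 of the genes counted under a fall or rise at 5 ng/ml, which moved in opposite directions, and 16 of the 927 genes were in none of the first 3 counts. The smallest p belonged to the mitotic genes Nek2 (log2 difference between doses -1.62), Cdc20 (-1.56) and Ccnb1 (-1.59). Nek2, a centrosome kinase gene, was at 29, 36.2 and 35.65 CPM with Rspo1 at 5 ng/ml in WT10, WT5 and WT30 and at 7.75, 13.5 and 10.85 CPM with Rspo3, against 56.3 ± 8.19 and 57.6 ± 8.48 CPM (SD, n = 3) with Rspo1 and Rspo3 at 100 ng/ml. Both ligands at 5 ng/ml thus gave less Nek2 RNA than at 100 ng/ml, and Rspo3 at 5 ng/ml the least. Of the 10 largest rises at 5 ng/ml, Pfkfb3, Pdlim2, Cldn4 and Areg were called for this difference (1.51, 2.12, 2.47 and 1.45, adjusted p = 0.000297, 0.00519, 0.0125 and 0.0422). Without WT10 all of these 4 lost the call (adjusted p = 0.0508, 0.201, 0.281 and 0.417), and without WT30 Cldn4 and Areg did (both 0.159).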

How the results depend on the processing

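The number of genes called between Rspo3 and Rspo1 at 5 ng/ml, 5448, was 4288 to 7185 under other pseudocounts, filters, scalings and weights. It was 4823 without the Rspo2 libraries, an alternative chosen after seeing the data, and 3407 without the replicate block. The 6 libraries alone gave 2046, a fold of at least 1.5 gave 2313, and leaving out 1 culture gave 2190 to 4917. Median scaling and quantile normalization gave 2401 higher and 2699 lower, and 2225 and 2277. The 927 genes with a difference between doses became 504 when every gene above 0 was tested, 229 without the block, 2591 with array weights and 34 to 642 when 1 culture was left out. The 0 genes with a difference between genotypes became 0 to 2 when a culture was left out: without KO2, which leaves 1 KO culture, Loxl4 and Dpcr1 were called. Of the named genes, 100 were called at 5 ng/ml, and 32 of these lost the call without WT10, 6 without WT5 and 19 without WT30. Signs turned only in genes not called. Under median scaling they became positive for Ang4 (0.033), Fcgbp (0.091), Chgb (0.047), Hpgds (0.051), Pcna (0.012), Dll1 (0.077) and Mcl1 (0.049). Under quantile normalization Ang4 was 0.064, Fcgbp 0, Hpgds 0.11, Krt19 -0.059, Bmp3 -0.0082 and Muc2 -0.069. With array weights Fcgbp was 0.14, Chgb 0.15, Hpgds 0.18, Pcna 0.00064 and Krt19 -0.0043. When 1 culture was left out, values ran from -0.32 to 0.13 for Ang4, -0.095 to 0.16 for Fcgbp, -0.12 to 0.095 for Chgb, -0.19 to 0.035 for Hpgds, -0.19 to 0.14 for Pcna, -0.073 to 0.16 for Krt19, -0.23 to 0.15 for Dll1, -0.21 to 0.28 for Bmp3, -0.092 to 0.050 for Mcl1, -0.076 to 0.21 for Muc2, -0.090 to 0.40 for Chga and -0.26 to 0.41 for Dclk1. The cause of these changes was not tested. In the 6 libraries 1 CPM stands for 18.4 to 30.8 reads, and Lgr5, Ascl2 and Ly6a were below 1 CPM with Rspo3.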
